A study of Homo sapiens with 3 samples.

Results

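Collagens are the structural proteins of the extracellular matrix, and 44 genes for collagen chains were read from the 3 gene tables, out of 39266 gene names on the assembled chromosomes and the mitochondrial genome. The members were all rows on the chromosome and mitochondrial references whose name consists of COL, a collagen type number, the letter A and a chain number. RNA was sequenced in 3 libraries, replicates 1 to 3, all labelled as wild-type HepG2, a cell line established from a human liver tumour, so the data hold 1 condition and no second group. No treatment, transgene or knockout is given for these libraries, and nothing in the labels says whether they came from separate cultures, so the spread between them may be technical. Levels are given as TPM, a measure scaled for gene length with an equal total for each library, so that levels of different genes can be compared. The tables hold no read counts, only the mean coverage of each gene. Against the label, none of 8 markers of hepatocyte secretion reached 1 TPM in any library, and 5 of them (ALB, APOA1, APOB, SERPINA1 and FGB) were listed at 0 throughout, while 8 of 8 housekeeping genes exceeded 10 TPM. The values below therefore belong to the libraries labelled HepG2.

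A collagen molecule is a trimer of chains that wind around each other, either of identical chains or of different ones. A chain that forms no trimer of either kind is usually kept in the cell and degraded. Fibrillar collagens, such as types I, III and V, form the cross-striated fibrils of connective tissue. Type IV forms the network of basement membranes, type VI forms beaded filaments, type VII anchors epithelia to the tissue beneath, and the FACIT collagens sit on the surface of fibrils. Transmembrane collagens span the cell membrane, and the multiplexins XV and XVIII are proteoglycans of basement membrane zones. In liver, type IV and type XVIII are known from sinusoids and hepatocytes, and types I and III are known from stellate cells in fibrosis.

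Of the 44 collagen genes, 16 had at least 1 TPM in all 3 libraries, or 36.4%, where 33.9% of all gene names and 59.6% of protein-coding genes did. At least 10 TPM in all 3 libraries was reached by 11 members, or 25.0%, against 20.7% of all gene names and 40.4% of protein-coding genes. The other 28 members stayed below 1 TPM in every library, and no member was on both sides of 1 TPM. The lowest mean among the 16 was 2.03 TPM, for COL4A6, and the highest among the 28 was 0.744 TPM, for COL11A2. Among the 16, the highest mean was 79.1 times the lowest.

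**Figure D1:**
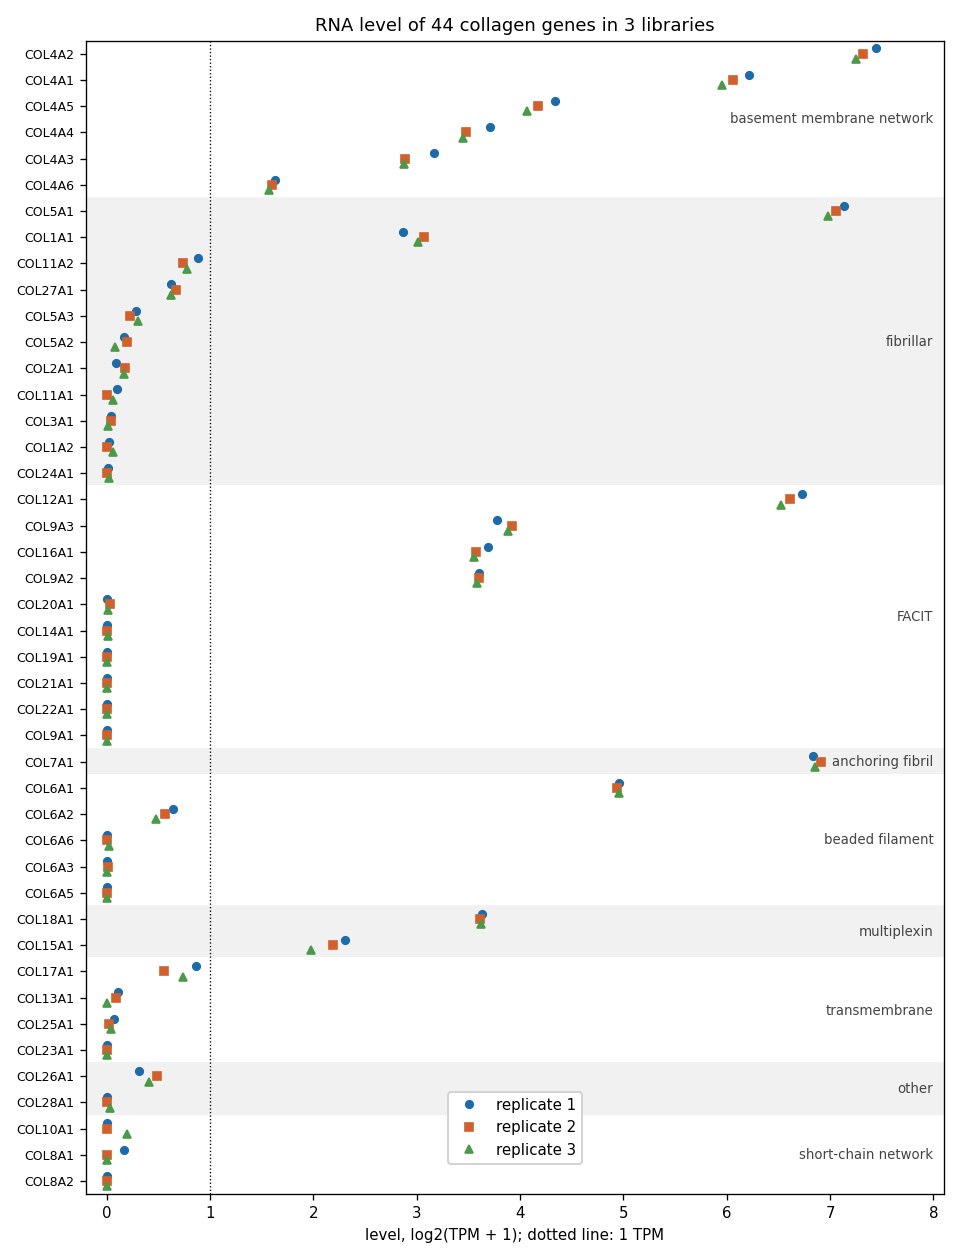
Level of each of 44 collagen genes on the log2(TPM + 1) scale (horizontal axis), grouped by collagen class, with 1 symbol for each of 3 libraries. The type IV genes all lie right of the dotted line at 1 TPM, while most fibrillar, FACIT and transmembrane genes lie left of it.

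In replicates 1, 2 and 3, all 44 genes together summed to 737, 699 and 669 TPM, or 701 ± 34.0 (SD, n = 3). The 5 genes with the highest means, COL4A2, COL5A1, COL7A1, COL12A1 and COL4A1, held 81.7% ± 0.293 of this sum (SD, n = 3), and the 16 genes above 1 TPM held 99.5% ± 0.0313 (SD, n = 3). By class, type IV took 37.7% ± 1.20 of the sum, the fibrillar collagens 20.1% ± 0.0776, the FACIT collagens 19.0% ± 0.0684 and type VII 16.5% ± 1.04 (SD, n = 3). Type VI took 4.35% ± 0.207 and the multiplexins 2.11% ± 0.0199 (SD, n = 3). The transmembrane collagens, the short-chain network collagens VIII and X, and COL26A1 and COL28A1 each came to less than the share of any class above, with 0.104%, 0.0128% and 0.0477%. In the type IV, fibrillar, FACIT, type VI, multiplexin and transmembrane classes, 1 gene held most of the class sum in every library. In type IV this gene was COL4A2, with 173 of 288, 158 of 259 and 152 of 247 TPM in replicates 1, 2 and 3.

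**Figure D2:**
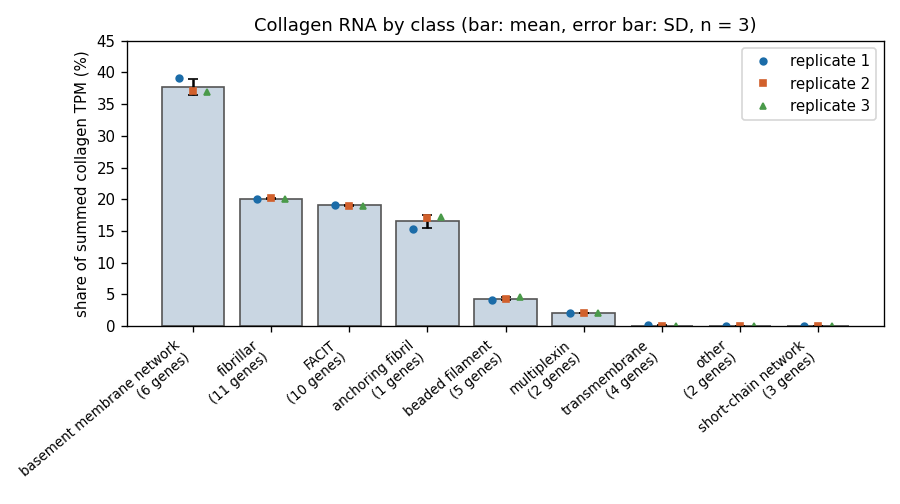
Share of the summed collagen TPM taken by each class, in percent. Bars show the mean, error bars the SD over 3 libraries and symbols the libraries; type IV is highest in all 3, between 36.9% and 39.1%.

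Type IV is the collagen of basement membranes, and it was the only class of more than 2 genes in which every member exceeded 1 TPM in every library. COL4A1 and COL4A2 encode the chains of its common form, which holds the α1 chain and the α2 chain. COL4A2 had 173, 158 and 152 TPM in replicates 1, 2 and 3, or 161 ± 10.9 TPM (SD, n = 3), and was the most abundant collagen RNA. COL4A1 had 73.4, 65.6 and 61.1 TPM, or 66.7 ± 6.23 TPM (SD, n = 3). The α1 gene was thus below the α2 gene in all 3 libraries, and their values did not overlap. In TPM, COL4A2 was 2.42 ± 0.0631 times as high as COL4A1 (SD, n = 3). By coverage the gap was larger, with means of 963 and 163 reads per base.

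COL4A3 and COL4A4 encode chains that join the α5 chain in the basement membranes of kidney, lung and inner ear. COL4A4 had 12.1, 10.1 and 9.88 TPM, and COL4A3 had 7.99, 6.42 and 6.35 TPM, each with replicate 1 above the other two. In TPM, COL4A4 was 1.55 ± 0.0307 times as high as COL4A3 (SD, n = 3). By coverage the gap was smaller, with means of 35.0 and 30.2 reads per base. COL4A5, which encodes the α5 chain, had 19.2, 17.0 and 15.8 TPM, or 17.4 ± 1.74 TPM (SD, n = 3). COL4A6, whose α6 chain also pairs with α5, had 2.09, 2.02 and 1.98 TPM, and COL4A5 was 8.52 ± 0.610 times as high (SD, n = 3). By coverage that gap was smaller too, with means of 40.9 reads per base for COL4A5 and 6.94 for COL4A6. All 6 type IV genes had their highest value in replicate 1, as did 58.1% of the 13753 genes whose mean TPM was 1 or more. After median-of-ratios scaling, which removes a shift that most genes share, 5 of the 6 were highest there, against 38.1% of all genes.

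The 6 type IV genes lie in pairs that point away from each other, head to head, so that the chains of a pair start from a shared stretch of DNA. In the coordinates of the deposited tables (GRCh38), COL4A1 (chromosome 13, 110148963 to 110307157, minus strand) and COL4A2 (110307267 to 110513209, plus strand) have 109 bases between them. COL4A4 (chromosome 2, 226970293 to 227164559, minus strand) and COL4A3 (227164565 to 227314792, plus strand) are separated by 5 bases. COL4A6 (chromosome X, 108155607 to 108439497, minus strand) and COL4A5 (108439844 to 108697545, plus strand) are separated by 346 bases. Sequence from between the COL4A1 and COL4A2 rows and from between the COL4A6 and COL4A5 rows is given because the paired genes share it. They come from the promoter windows of RefSeq on GRCh38.p14, in which 32 of the 44 collagen genes were found, and are written on the plus strand, 5′ to 3′. Capitals mark matches to the motif CCAAT on either strand and to the GC box motif GGGCGG on either strand. The TATA box motif TATAAA was searched in the same way.
COL4A1 and COL4A2, all 109 bases between the rows, chr13:110307158-110307266: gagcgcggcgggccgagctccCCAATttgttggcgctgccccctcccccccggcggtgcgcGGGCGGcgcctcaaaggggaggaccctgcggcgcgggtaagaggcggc
COL4A5 and COL4A6, the 250 bases before the RefSeq start of COL4A5, chrX:108439588-108439837: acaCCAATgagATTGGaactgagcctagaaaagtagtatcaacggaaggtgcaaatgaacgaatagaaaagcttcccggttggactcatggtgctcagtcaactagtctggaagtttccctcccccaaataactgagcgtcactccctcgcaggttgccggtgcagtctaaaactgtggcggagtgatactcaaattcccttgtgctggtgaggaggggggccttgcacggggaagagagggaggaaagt

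The stretch of COL4A1 and COL4A2 held 1 CCAAT and 1 GGGCGG and was 78.0% G and C, with 15 CpG dinucleotides. The stretch of COL4A5 and COL4A6 held CCAAT once on each strand, within 16 bases of its left end, and was 51.2% G and C, with 8 CpG dinucleotides. Neither held TATAAA. Among 35116 RefSeq promoter windows, 32.0% held CCAAT, 42.6% held GGGCGG and 10.7% held TATAAA on either strand within 250 bases before the start, and within the nearest 109 bases 19.2%, 32.6% and 5.27% did. On the log2(TPM + 1) scale the difference was smallest for COL4A3 and COL4A4 and largest for COL4A5 and COL4A6, whereas by coverage it was largest for COL4A1 and COL4A2.

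Among the 11 fibrillar collagen genes, 2 exceeded 1 TPM, where 59.6% of protein-coding genes had at least 1 TPM in all 3 libraries. COL5A1 encodes the α1 chain of type V, a minor fibril collagen that sets the diameter of type I fibrils, and had 139.6, 132 and 125 TPM, or 132 ± 7.11 TPM (SD, n = 3). COL5A2, which encodes the partner chain of the common form of type V, had 0.124, 0.145 and 0.0576 TPM, and COL5A3 had 0.214, 0.168 and 0.233 TPM. COL5A1 was thus at least 910 times as high as COL5A2 in every library. This ratio has a value near 0 below the line and is imprecise, with 1124, 910 and 2176 in replicates 1, 2 and 3. COL5A1 (chromosome 9, 134641789 to 134844843, plus strand) spans 203 kb. COL1A1, which encodes the α1 chain of type I, the main collagen of bone, skin and scar, had 6.30, 7.39 and 7.10 TPM, or 6.93 ± 0.564 TPM (SD, n = 3). COL1A2, which encodes its α2 chain, had 0.0171, 0 and 0.0457 TPM. COL3A1, the second main collagen of scar, was at or below 0.0307 TPM in every library. The other fibrillar genes were COL11A2 at 0.744, COL27A1 at 0.556, COL2A1 at 0.107, COL11A1 at 0.0395 and COL24A1 at 0.0110 TPM on average.

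COL7A1 encodes the chain of type VII, which forms a homotrimer and builds the anchoring fibrils under the epidermis. It had 113, 119.5 and 115 TPM, or 116 ± 3.33 TPM (SD, n = 3), and its highest value was in replicate 2. The gene (chromosome 3, 48564073 to 48595302, minus strand) holds 119 exons of its canonical GENCODE v44 transcript within 31.2 kb.

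Of the 10 FACIT genes, 4 exceeded 10 TPM in every library and 6 stayed below 1 TPM. COL12A1 encodes the homotrimeric type XII, which binds type I fibrils, and had 104.9, 96.6 and 91.4 TPM, or 97.6 ± 6.80 TPM (SD, n = 3). Its row is on chromosome 6, 75084326 to 75206262, minus strand. COL16A1, the chain of the homotrimeric type XVI, had 11.9, 10.9 and 10.8 TPM. Type IX, a collagen of cartilage fibrils, is built of 3 chains from COL9A1, COL9A2 and COL9A3. COL9A3 had 12.7, 14.2 and 13.7 TPM and COL9A2 had 11.2, 11.1 and 11.0 TPM, whereas COL9A1 was listed at 0 in all 3 libraries. COL9A3 was 1.22 ± 0.0727 times as high as COL9A2 (SD, n = 3) and above it in 3 of 3 libraries. COL20A1 had at most 0.0200 TPM, COL14A1 was above 0 in replicate 3 only, at 0.0103 TPM, and COL19A1, COL21A1 and COL22A1 were listed at 0 throughout.

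Type VI, the collagen of beaded filaments, is assembled from the products of COL6A1, COL6A2 and 1 longer chain, most often that of COL6A3. COL6A1 had 30.1, 29.7 and 30.1 TPM, or 30.0 ± 0.233 TPM (SD, n = 3), the smallest relative spread of any of the 16 genes, with a coefficient of variation of 0.778%. COL6A2 had 0.558, 0.480 and 0.396 TPM and COL6A3 had 0, 0.00740 and 0 TPM. COL6A1 was 63.9 ± 11.2 times as high as COL6A2 (SD, n = 3), and both lie on the plus strand of chromosome 21 with 93021 bases between them. COL6A5 was listed at 0, and COL6A6 reached 0.0153 TPM in 1 library. Both multiplexin genes exceeded 1 TPM. COL18A1, from whose protein the fragment endostatin is cut, had 11.4, 11.2 and 11.3 TPM, and COL15A1 had 3.95, 3.57 and 2.95 TPM. COL18A1 varied by 0.111 TPM (SD, n = 3), while COL15A1 had the largest coefficient of variation of the 16, at 14.5%.

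The 28 genes below 1 TPM fell into several levels. Of these, 13 were above 0 in all 3 libraries, 2 in 2 libraries, 6 in 1 library and 7 in none, so that 15.9% of the members were listed at 0 throughout, against 19.9% of protein-coding genes. The 7 were COL6A5, COL8A2, COL9A1, COL19A1, COL21A1, COL22A1 and COL23A1. COL17A1, the transmembrane collagen of epithelial hemidesmosomes, had 0.815, 0.470 and 0.670 TPM and was the highest of its class. COL13A1 and COL25A1, the other transmembrane genes above 0, reached at most 0.0812 and 0.0513 TPM. COL26A1 had 0.245, 0.405 and 0.327 TPM. COL10A1, a marker of growth plate cartilage, was above 0 in replicate 3 only, at 0.145 TPM. The row of COL10A1 overlaps the row of NT5DC1 on the other strand, which had 7.89 ± 0.803 TPM (SD, n = 3), and the strand setting of the quantification is not given in the sources used here. The highest coverage of any of the 28 genes in any library was 5.11 reads per base. The lowest value above 0 among the members was 0.00435 TPM, for COL11A1 in replicate 2, at a coverage of 0.0129 reads per base. In bulk RNA, fewer cells with a transcript cannot be told apart from less of it in each cell.

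Chains that assemble with each other were compared within each library, in 11 pairs, of which 9 had at least 1 chain with a mean of 1 TPM or more. Every 1 of the 9 pairs had the same direction in 3 of 3 libraries. For pairs whose partner stayed below 1 TPM in every library (COL1A2, COL5A2, COL6A2, COL6A3 or COL9A1), this direction largely follows from how pairs were chosen. Pairs that share COL6A1 or COL9A2 are not independent, so the count is descriptive only. On the log2(TPM + 1) scale, COL5A1 exceeded COL5A2 by 6.91 ± 0.05, COL6A1 exceeded COL6A3 by 4.95 ± 0.02 and COL6A2 by 4.39 ± 0.08, and COL1A1 exceeded COL1A2 by 2.96 ± 0.11 (SD, n = 3). The difference of COL9A1 from COL9A2 was -3.60 ± 0.01 (SD, n = 3). Within type IV the difference was 2.59 ± 0.11 for COL4A5 over COL4A6, -1.26 ± 0.04 for COL4A1 from COL4A2 and -0.57 ± 0.02 for COL4A3 from COL4A4, and for COL9A2 from COL9A3 it was -0.26 ± 0.08 (SD, n = 3). An exact permutation test that flips the sign of each library's difference (two-sided) gave p = 0.25 for each pair, and 0.25 after Benjamini-Hochberg adjustment over the 9 pairs, and no smaller p can be reached with 3 libraries. Each mean difference was at least 3 times its SD between libraries. That SD covers only these 3 libraries, whose spread may be technical, and does not take the place of the test. Where a partner was near 0 the size rests on the pseudocount: with 0.1 in place of 1, the difference was 9.33 for COL5A1 over COL5A2 and 5.88 for COL1A1 over COL1A2. The untested pairs were COL8A1 with COL8A2 and COL11A1 with COL11A2.

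**Figure D3:**
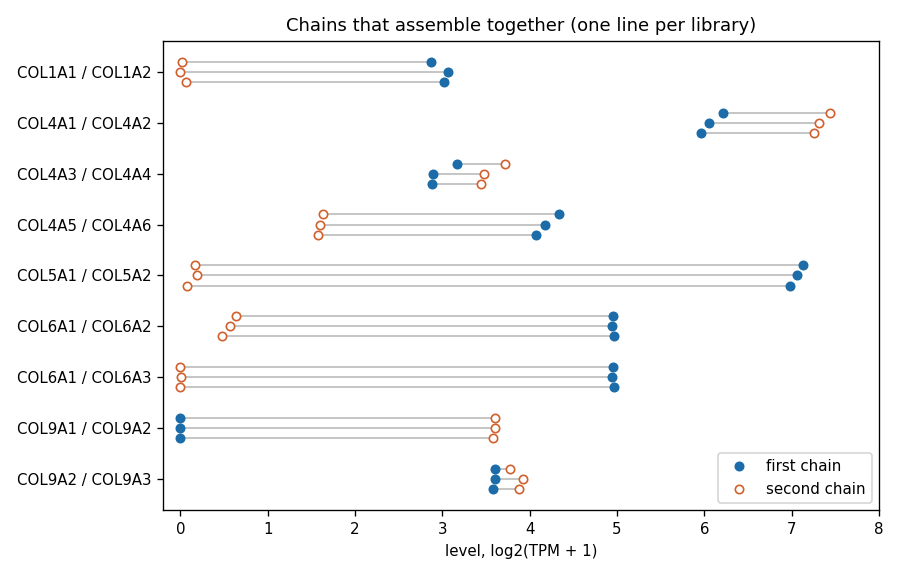
Levels of the 9 tested chain pairs on the log2(TPM + 1) scale (horizontal axis). Each line is 1 library; filled circles show the chain named first and open circles the chain named second. Both chains of the pairs COL4A1 and COL4A2, COL4A3 and COL4A4, and COL9A2 and COL9A3 are well above 0, while COL1A2, COL5A2, COL6A3 and COL9A1 lie near 0 in all 3 libraries.

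In the order of mean TPM, most neighbours among the 16 genes were separate, meaning that the lowest library of the one lay above the highest library of the next. The ranges overlapped in 4 of 15 neighbouring pairs, which were COL18A1 with COL16A1, COL16A1 with COL9A2, COL9A2 with COL4A4 and COL1A1 with COL4A3. COL18A1, COL16A1, COL9A2 and COL4A4, at 10.7 to 11.3 TPM, were thus not separated as neighbours by the spread between libraries. COL4A2 exceeded 93.5% of the 13753 genes whose mean TPM was 1 or more, COL5A1 exceeded 92.1%, COL7A1 90.8%, COL12A1 88.8% and COL4A1 83.5%. COL1A1 exceeded 30.9% and COL4A6 10.4%.

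The order also depends on the scale. The tables give coverage, the mean number of reads over each base of a gene, which is not scaled for library size. COL4A2 was highest by coverage too, with 963 ± 125 reads per base (SD, n = 3), and the mean of COL7A1, 655 ± 50.0, was above that of COL5A1, 618 ± 73.8 (SD, n = 3). COL7A1 had 672, 695 and 599 reads per base and COL5A1 had 683, 633 and 538, so COL7A1 was higher in 2 of 3 libraries and lower in replicate 1. COL4A1 was below COL6A1 by coverage in all 3 libraries, with 163 ± 24.6 against 179 ± 11.8 reads per base (SD, n = 3). Coverage and FPKM of a gene are tied by a ratio whose highest value was 13.3, 12.8 and 11.5 in replicates 1, 2 and 3. COL4A2 and COL6A1 stood at this highest ratio, while COL4A1 stood at 0.408 of it, COL4A5 at 0.392 and COL18A1 at 0.301 in replicate 1. The difference of COL4A1 from COL4A2 on the log2 scale was accordingly -2.54 by coverage scaled to an equal total per library, and that of COL4A3 from COL4A4 was -0.19. Directions of the 9 pairs were the same on both scales.

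**Figure D4:**
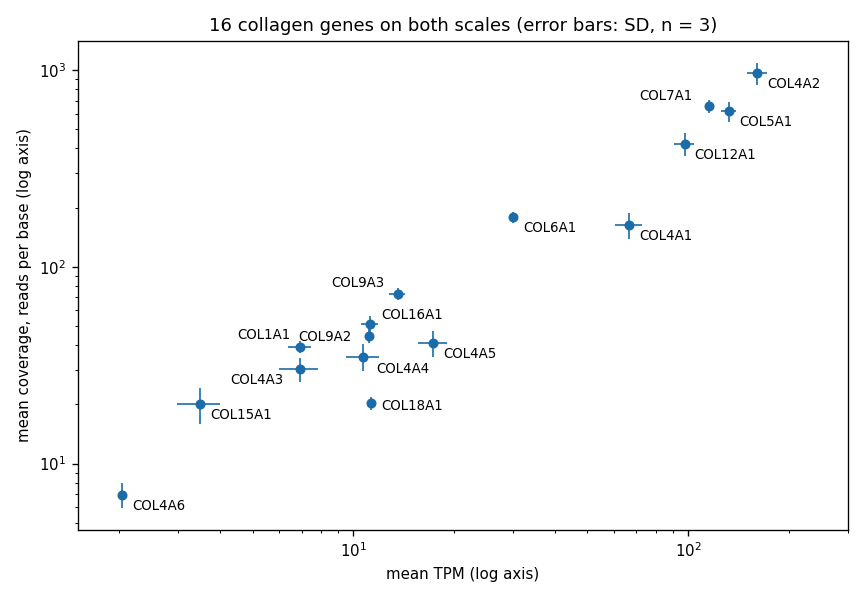
Mean coverage in reads per base (vertical log axis) against mean TPM (horizontal log axis) for the 16 collagen genes above 1 TPM, with error bars for the SD over 3 libraries. COL18A1, COL4A5 and COL4A1 lie lower by coverage than genes of like TPM.

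The spread of the 16 genes between libraries was close to that of other genes. Their median coefficient of variation was 6.25%, against 6.12% for all 13753 genes whose mean TPM was 1 or more, and the median range of log2(TPM + 1) was 0.17 against 0.15. Without replicate 1, the median range of the collagen genes was 0.0456, though a range over fewer libraries cannot be larger. The same value for all genes was not computed. The highest value was in replicate 1 for 12 of the 16 collagen genes, or 75.0%, where 58.1% of the 13753 genes had theirs. COL1A1, COL7A1 and COL9A3 were highest in replicate 2, and COL6A1 in replicate 3. After median-of-ratios scaling, which removes a shift that most genes share, 9 of the 16 were highest in replicate 1, against 38.1% of all genes, and 5 of the 6 type IV genes were. No value above 0 was the same in any pair of libraries for any member.

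Of the 16 genes, 5 are overlapped by the row of another gene whose mean TPM was 1 or more. The last 11204 bp of COL18A1 overlap SLC19A1, which had 18.0 ± 1.36 TPM, and for COL9A3 an overlap of 146 bp is shared with TCFL5, which had 37.1 ± 4.36 TPM (SD, n = 3). Both lie on the opposite strand, so reads there could have been assigned to either gene. COL4A2 is overlapped by the antisense genes COL4A2-AS1, with 1.07 ± 0.367 TPM, and COL4A2-AS2, with 0.307 ± 0.0108 TPM (SD, n = 3), and COL5A1 by COL5A1-AS1, with 0.892 ± 0.106 TPM (SD, n = 3). COL4A4 shares 28918 bp with RHBDD1, which had 3.54 ± 0.295 TPM (SD, n = 3), and COL16A1 shares 998 bp with LOC101929444, which had 2.79 ± 0.319 TPM (SD, n = 3). The levels of the COL4A2 and COL5A1 antisense genes were below those of COL4A2 and COL5A1 in every library.

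The exon structure of the canonical transcripts in GENCODE v44 differed between the members. An exon of 54 bp holds a whole number of the Gly-X-Y repeats of the collagen helix and is a known building unit of fibrillar collagen genes. Between the outermost coding exons, COL5A1 had 29 exons of 54 bp among 64 and COL1A1 had 21 among 49. COL9A2 and COL9A3 each had 14 among 30. The 6 type IV genes had between 1 and 3 such exons, for instance 1 of 45 in COL4A2 and 2 of 50 in COL4A1. COL7A1 had 5 of 116 and COL12A1 had 4 of 63. COL5A2, the scarce partner of COL5A1, had 24 among 52.

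The enzymes that make collagen chains fit to assemble were mostly above 10 TPM. Of 14 genes for prolyl and lysyl hydroxylation and glycosylation, 11 had at least 10 TPM in every library, a level that 40.4% of protein-coding genes reached. P4HB, a subunit of prolyl 4-hydroxylase, had 552 ± 15.8 TPM, COLGALT1, which adds galactose to hydroxylysine, had 139.8 ± 5.55 TPM, and PLOD1, a lysyl hydroxylase, had 90.0 ± 0.488 TPM (SD, n = 3). P3H3 and COLGALT2 were below 1 TPM in every library. Of 13 genes for folding and export, 11 had at least 10 TPM in every library, led by PPIB with 663 ± 6.80 TPM, HSPA5 with 606 ± 22.2 TPM and FKBP10 with 153 ± 2.62 TPM (SD, n = 3), all chaperones or prolyl isomerases of the endoplasmic reticulum. SERPINH1, the collagen-specific chaperone, had 136 ± 1.94 TPM (SD, n = 3); it was chosen after its value was seen. CREB3L1 was below 1 TPM in every library. These proteins also serve clients other than collagen.

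Fibrillar procollagens lose their propeptides outside the cell and are then cross-linked. Of 10 genes for propeptide processing, 4 had at least 1 TPM in every library, where 59.6% of protein-coding genes did. BMP1, which removes the C-propeptide of fibrillar procollagens, had 42.6 ± 1.10 TPM, its enhancer PCOLCE2 had 30.6 ± 1.88 TPM and TLL1, a relative of BMP1, had 2.81 ± 0.154 TPM (SD, n = 3). ADAMTS2, which removes the N-propeptide, was listed at 0 in all 3 libraries, and ADAMTS3 and ADAMTS14 were below 1 TPM. Of the 5 lysyl oxidase genes, whose enzymes start the cross-links, 4 exceeded 1 TPM. LOXL2, which cross-links type IV, had 65.0 ± 2.34 TPM, LOXL1 had 10.2 ± 1.08 TPM and LOX had 7.30 ± 0.545 TPM (SD, n = 3).

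Of 10 collagen receptor genes, 5 reached 1 TPM in all 3 libraries, where 59.6% of protein-coding genes did. ITGB1, the β subunit of the collagen-binding integrins, had 261 ± 13.5 TPM, its α partner ITGA1, which prefers type IV, had 36.4 ± 2.25 TPM and the receptor kinase DDR1 had 14.9 ± 0.903 TPM (SD, n = 3). ITGA10, ITGA11, DDR2, LAIR1 and GP6 were below 1 TPM in every library. Of 9 genes for collagen degradation, PEPD, a cytosolic dipeptidase that recycles proline, had 53.8 ± 1.60 TPM (SD, n = 3), and the other 8 were below 1 TPM in every library. Among these were CTSK, with at most 0.512 TPM, MMP9, with at most 0.454 TPM, and the collagenases MMP1, MMP8 and MMP13. Of 11 genes for small leucine-rich and other fibril-binding proteins, THBS1 had 29.0 ± 1.80 TPM and TGFBI had 5.91 ± 0.0632 TPM (SD, n = 3), and TNXB lay on both sides of 1 TPM. FN1, the gene of fibronectin, chosen after its values were seen, did so too, with 1.04, 0.804 and 0.883 TPM. DCN, LUM, BGN and POSTN were below 0.1 TPM, and SPARC and FMOD were listed at 0. On average, these 11 genes had a median of 0.0281 TPM, against 36.9 TPM for the 14 hydroxylation genes.

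**Figure D5:**
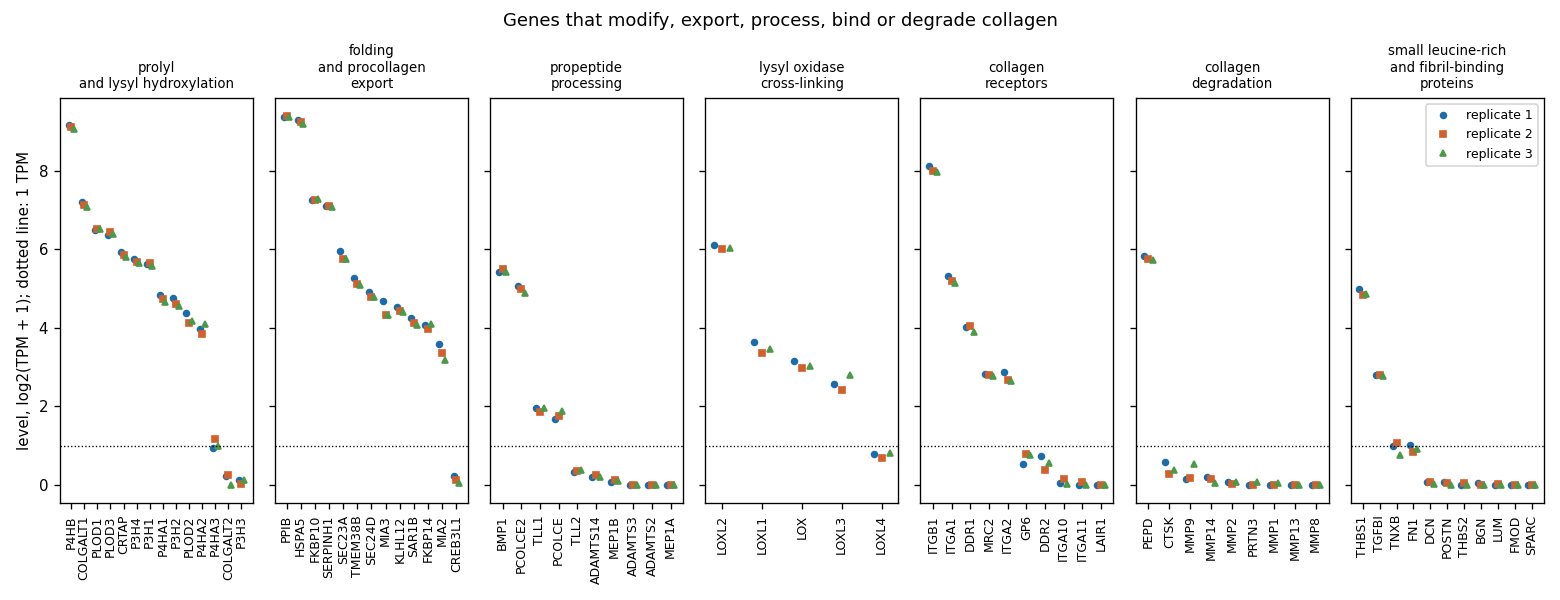
Levels on the log2(TPM + 1) scale (vertical axis) of genes that modify, export, process, bind or degrade collagen, in 7 panels, with 1 symbol for each of 3 libraries. Most hydroxylation and export genes lie above the dotted line at 1 TPM, while 8 of 9 degradation genes lie below it.

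Markers of other cell types that make collagen were mostly low. For comparison, 59.6% of protein-coding genes reached 1 TPM in every library, and 19.9% had a value of 0 throughout. Of 12 fibroblast and stellate cell markers, 8 were below 1 TPM in every library, PDGFRA, LRAT and DPT were listed at 0, and the summed level of the list was between 73.0 and 81.8 TPM. Most of that sum was CCN2, with 68.0 ± 5.03 TPM, followed by ACTA2 with 2.90 ± 0.657 TPM and PDGFRB with 2.25 ± 0.190 TPM (SD, n = 3). Of 8 endothelial markers, 6 were below 1 TPM in every library, KDR and EMCN were listed at 0, and the sum was between 67.0 and 71.2 TPM. ESAM made up most of it, with 66.8 ± 2.12 TPM, followed by VWF with 1.36 ± 0.125 TPM and CDH5 with 0.263 ± 0.0716 TPM (SD, n = 3). Of 7 leukocyte markers, 6 were below 1 TPM, PTPRC, CD3E and LYZ were listed at 0, and the sum was between 10.1 and 11.6 TPM, led by CD68 with 9.41 ± 0.965 TPM (SD, n = 3). Of 7 chondrocyte and osteoblast markers, 5 were below 1 TPM, IBSP and SP7 were listed at 0 and ACAN reached 0.00793 TPM, while the type IX genes COL9A2 and COL9A3 exceeded 10 TPM. The sum of that list, between 236 and 254 TPM, was mostly ALPL, with 241 ± 9.74 TPM, followed by MATN3 with 1.88 ± 0.205 TPM (SD, n = 3) and BGLAP with 0.165 ± 0.0715 TPM (SD, n = 3). The summed level of the 8 hepatocyte markers was between 0.0571 and 0.244 TPM.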

How the data were processed

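The data were RNA-seq of 3 libraries whose label is wild-type HepG2. The authors sequenced 150 bp paired-end reads, filtered them with FastQC v0.11.8 and Trim Galore v0.6.2 and mapped them to GRCh38 with STAR v2.6.1a. StringTie is named in the submitters' processing notes. The annotation and strand setting are not given in the sources used here. Coverage, as the authors deposited it, is the mean read depth along a gene, without scaling for library size. The FPKM deposited by the authors is scaled for length and library size, and the TPM deposited by the authors is scaled to the same total per library. Read counts are not given in the tables, and the SD between the 3 libraries is the measure of precision used.

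Rows on chromosome and mitochondrial references were joined by gene name, strand and coordinates, which kept 39320 rows and left out 4, 2 and 4 rows of replicates 1, 2 and 3. Rows of a gene name were summed. Rows of COL11A2 on 6 alternate sequences, all at 0, were not used. Members, classes, chain pairs and gene lists were chosen with earlier results of these data known. The genes named were all members, the 3 highest genes of each list and genes of the lists below 1 TPM, except that of the leukocyte list the highest gene and those at 0 are named and the others are not reported here. Chain pairs were compared on log2(TPM + 1) by an exact permutation test (sign flips over libraries, two-sided). The calculation of ranges was tested on simulated data, and the permutation test was checked on short sets of chosen values. As alternatives, each replicate was left out, limits and pseudocounts were changed, coverage replaced TPM, and TPM was rescaled by the median of ratios or after removing mitochondrially encoded genes. Exons were taken from GENCODE v44, in which all 44 members were found, and biotypes and promoter sequences from RefSeq. The start or end of 27 of the 44 members was the same in the deposited tables and the RefSeq table. Python 3.11.15, numpy 2.4.6, pandas 2.3.3 and matplotlib 3.10.9 were used.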

Additional observations from a re-analysis of the deposited data

How the results depend on the processing

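The number of collagen genes above the limit was 16 under every replicate left out, under both other scalings, by coverage and with alternate sequences included, which was an alternative chosen after the data were seen; it was 22 with a limit of 0.1 TPM and 11 with a limit of 10 TPM. Scaling without mitochondrially encoded genes, which held 19.9% to 20.3% of TPM, raised the summed collagen TPM from 701 to 879, and by construction raised every gene by nearly 1 factor. By coverage, the share changed to 19.7% for the fibrillar class, 5.34% for type VI, 19.5% for type VII, 17.5% for FACIT, 1.19% for the multiplexins and 0.0192% for COL26A1 and COL28A1. Among members with a mean of at least 1 TPM only, the share was 19.95% for the fibrillar class and 19.1% for FACIT. The direction of all 9 chain pairs was kept under each replicate left out, a pseudocount of 0.1 and coverage, and 10 of all 11 pairs had 1 direction in 3 libraries. For tested pairs with a partner below 1 TPM in every library, the direction largely follows from how pairs were chosen. The median range of log2(TPM + 1), 0.17, was 0.166 without mitochondrially encoded genes, 0.124 with median-of-ratios scaling, 0.172 with a pseudocount of 0.1 and 0.0787 with no minimum. It ranged from 0.0456, without replicate 1, to 0.151, without replicate 2, when a replicate was left out; a gene's range over fewer libraries cannot exceed its range over all 3. Other causes were not tested. No paired analysis was possible because there is no other condition that shares the replicate numbers; chains were compared within each library. Without read counts, no counting error can be given for genes at or near 0.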

Other observations

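A further list held 20 genes whose proteins contain a collagen-like stretch but are not named as collagens. Among protein-coding genes, by comparison, 59.6% reached 1 TPM in every library and 19.9% had a value of 0 throughout. Of the 20 listed genes, 19 were below 1 TPM in every library and 10 were listed at 0 in all 3. The exception was SCARA3, a scavenger receptor-like protein induced by oxidative stress, with 207, 194 and 189 TPM, or 197 ± 9.26 TPM (SD, n = 3), which is above the mean of every one of the 44 collagen genes. EMILIN1, an elastic fibre protein, with 0.440 ± 0.0525 TPM, and COLQ, the collagen tail of acetylcholinesterase, with 0.434 ± 0.115 TPM (SD, n = 3), were next. COLEC10, COLEC11 and MBL2, collectins known from liver, were at 0.00561 TPM, 0.00952 TPM and 0 on average, and the C1q genes C1QA, C1QB and C1QC were listed at 0.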
